A study of Mus musculus with 20 samples.

Results

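The CPA response of NIL motor neurons was compared between 12 h and 36 h of treatment, using the difference (36 h CPA minus 36 h control) minus (12 h CPA minus 12 h control). The comparison rests on 8 of the 20 libraries of the study, those of the NIL line labelled 12 h or 36 h. NIL cells are labelled spinal motor neurons differentiated from mouse embryonic stem cells, a line that carries the motor neuron programming factors Neurog2, Isl1 and Lhx3 in this field. Day 2 cultures were kept in Neurobasal medium with serum and B27 and either received 20 µM cyclopiazonic acid (CPA) or did not. The 4 groups were untreated NIL at 12 h, CPA-treated NIL at 12 h, untreated NIL at 36 h and CPA-treated NIL at 36 h, with 2 libraries each. Total RNA depleted of ribosomal RNA was sequenced in all of them. On the times the labels conflict: titles and extraction protocol state 12 h and 36 h, but the treatment protocol and study design state 6 h and 12 h. The titles were followed here. The labels do not say whether replicates 1 and 2 are separate differentiations. The p-values measure the spread left in all 20 libraries once group and replicate number are fitted. That spread may be technical. The cultures are bulk samples, in which fewer cells of a type and less RNA per cell cannot be told apart.

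CPA blocks SERCA, the pump that fills the endoplasmic reticulum (ER) with calcium, and proteins then misfold in the ER. The unfolded protein response starts from the sensors PERK, ATF6 and IRE1. PERK leads to translation of ATF4 and its partner CHOP (Ddit3), which drive genes of amino acid supply and of later cell death, while ATF6 and IRE1, through spliced XBP1, drive chaperones and ER-associated degradation. Motor neurons make large amounts of membrane and secreted protein, and ER stress in them is studied as a model of amyotrophic lateral sclerosis.

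The 8 libraries held between 7996454 and 26821415 reads assigned to genes and between 16035 and 17260 detected genes. Reads of the ribosomal RNA precursor Rn45s made up 5.183% to 20.44% of gene reads in 7 of them and 38.26% in the second replicate of CPA-treated NIL at 36 h, which also had the highest share of multi-mapped reads among all counted reads (52.62%, against a lowest of 21.25%). The programming factors Lhx3 and Isl1 were detected in every library. Introduced and endogenous copies were not separated, so this does not show motor neuron identity. Lhx3 lay between 115 and 166.1 CPM (gene reads scaled to a library of fixed size) and Isl1 between 87.6 and 249. CPM here are scaled by TMM factors, which ranged from 0.7399 to 1.168.

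Of 14792 genes tested, CPA changed 1174 at 12 h (7.94%), of which 616 rose (4.16%) and 558 fell (3.77%), at an adjusted p under 0.05 in edgeR's quasi-likelihood test. After 36 h it changed 2697 genes (18.2%), of which 1073 rose (7.25%) and 1624 fell (11.0%). At both times 611 genes were called, 605 of them in the same direction. The 611 were 52% of the 12 h calls and 22.7% of the 36 h calls. Leaving out a single library lowered the 36 h count to 337 without the first untreated replicate at 36 h, to 527 without the second treated one and to 1581 without the second untreated one. The 12 h count fell to 449 and 482 without the second treated and untreated replicates at 12 h, and to 600 and 657 without the first ones.

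The difference between the responses passed the test for 16 genes (0.108%). For 15 genes the response at 36 h was lower than at 12 h (0.101%), and for 1 gene it was higher (0.00676%). The number depended on the model. It was 170 with the replicate block fitted within each line, 466 from the 8 NIL libraries alone, 146 with DESeq2 and 1 without the block (Arid5a). All 16 were among the calls of the first 3 of these. Leaving out 1 library gave 0 calls without the first untreated replicate at 36 h or the second untreated one at 12 h, 1 call (Hhip) without the second treated replicate at 36 h, and 52 without the first. The other 4 omissions gave 5 to 9 calls. At an unadjusted p under 0.05, 2080 genes passed (14.1%, where 5% is the share under no change), 877 with a positive and 1203 with a negative difference. The median standard error of the difference was 0.303 on the log2 scale.

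Untreated NIL cultures showed 0 genes (0%) changed between 12 h and 36 h by edgeR's quasi-likelihood test. There were 788 at an unadjusted p under 0.05, the smallest adjusted p was 0.201, and DESeq2 called 26. CPA-treated cultures differed between the times at 1925 genes (13.0%), 880 higher (5.95%) and 1045 lower (7.06%) at 36 h. All 16 genes were among these 1925. The difference is computed from the same treated libraries, so this overlap is not separate evidence. For 14 of the 16 the untreated level was higher at 36 h than at 12 h, beside 7582 of 14792 genes tested. A higher untreated level at 36 h by itself makes the difference more negative. None of the 16 passed the test between the untreated times. The treated count was 137 without the second treated replicate at 12 h, 585 and 836 without the second and first treated ones at 36 h, and 1186 without the first at 12 h.

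**Figure D1:**
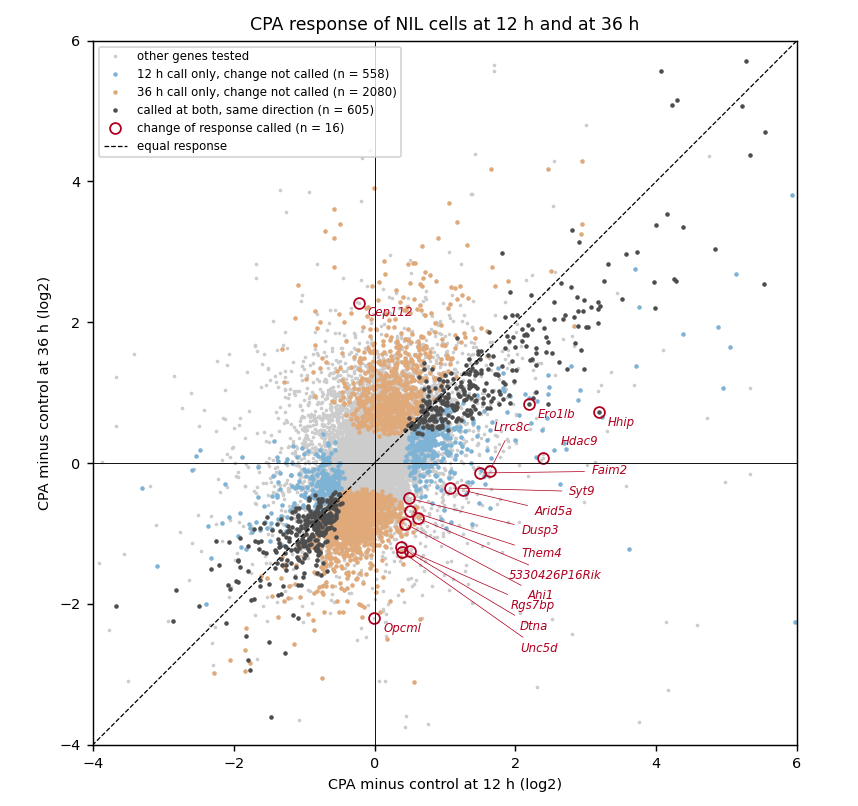
Each point is a gene, with its log2 change (CPA minus control, 2 libraries a group) at 12 h on the horizontal axis and at 36 h on the vertical axis; 26 genes lie outside the axes. The 16 circled genes lie away from the dashed line of equal response, 15 below it and Cep112 above it.

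Transient genes rose at 12 h, were not called at 36 h and had a called difference. There were 5 of them, all rising at 12 h (0.0338%): Arid5a, Lrrc8c, Faim2, Syt9 and Hdac9. No gene that fell at 12 h met this definition. A further 302 genes that rose (2.04%) and 256 that fell (1.73%) at 12 h were not called at 36 h, but their difference did not pass the test, so they are not shown to be transient.

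Arid5a, an AT-rich DNA-binding and mRNA-stabilising protein (chromosome 1, 36307733 to 36324029, GRCm38), was at 18.1 and 15.0 CPM in the untreated libraries at 12 h and at 44.5 and 34.6 CPM under CPA. At 36 h it was at 26.4 and 25.2 CPM untreated and at 20.8 and 18.6 CPM treated. The treated libraries lay above the untreated ones at 12 h and below them at 36 h, with no overlap at either time. The log2 response was 1.25 ± 0.15 (SE) at 12 h (adjusted p = 6.14e-05, edgeR) and -0.39 at 36 h (adjusted p = 0.0786), a difference of -1.63 ± 0.21 with a 95% interval of -2.07 to -1.19 (adjusted p = 0.0038). Part of the difference lay in the untreated cultures, where the 36 h level was higher by 0.63 on the log2 scale (adjusted p = 0.304). The 250 bases before its start in RefSeq (GRCm38.p6, chr1:36307483-36307732, plus strand) are shown because they hold the only match to a stress element among the transient genes with a promoter entry, 1 of 4. The capitals mark a CARE, the C/EBP-ATF response element bound by ATF4, searched as TGATG and AA with 1 base of any kind between them, here on the minus strand.
Arid5a: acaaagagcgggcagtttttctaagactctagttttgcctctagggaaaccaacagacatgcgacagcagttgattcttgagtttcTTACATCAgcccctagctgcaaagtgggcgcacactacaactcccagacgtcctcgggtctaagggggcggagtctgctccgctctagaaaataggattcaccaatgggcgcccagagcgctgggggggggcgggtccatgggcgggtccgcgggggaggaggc
The match is a description of the letters only. Of the tested genes with a promoter entry, 2.78% hold this motif on either strand.

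Lrrc8c, a subunit of the volume-regulated anion channel (chromosome 5, 105519388 to 105613018), had 22.3 and 17.9 CPM untreated and 69.3 and 56.2 CPM treated at 12 h. At 36 h the untreated libraries had 26.6 and 24.1 CPM and the treated ones 25.3 and 21.6 CPM. All 4 libraries at 36 h lay close to the untreated level at 12 h. Its log2 response went from 1.63 ± 0.17 (adjusted p = 2.15e-05) to -0.11 (adjusted p = 0.68), a difference of -1.75 ± 0.24 (adjusted p = 0.00574, edgeR). Faim2, a membrane inhibitor of Fas-mediated death of neurons (chromosome 15, 99497012 to 99528165), had 9.24 and 9.75 CPM untreated and 28.2 and 24.9 CPM treated at 12 h. By 36 h it had 16 and 15.5 CPM untreated and 17.6 and 10.7 CPM treated, so the groups overlapped at that time. Its difference was -1.64 ± 0.26 (adjusted p = 0.0227).

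Syt9, a synaptotagmin that acts as a calcium sensor of vesicle release (chromosome 7, 107370728 to 107548656), rose from 9.48 and 9.75 CPM to 19.1 and 21.7 CPM at 12 h. At 36 h it had 13.1 and 17.4 CPM untreated and 12.0 and 11.3 CPM treated. The treated libraries at 36 h were below both untreated ones by a small margin that did not pass the test (log2 -0.35, adjusted p = 0.157). Its difference was -1.43 ± 0.24 (adjusted p = 0.0278, edgeR). Hdac9, a class IIa histone deacetylase (chromosome 12, 34047580 to 34917095), rose from 6.42 and 3.60 CPM to 28.9 and 23.3 CPM at 12 h. At the later time it was at 8.58 and 7.10 CPM untreated and at 11.2 and 5.52 CPM treated. Its log2 response was 2.39 ± 0.30 at 12 h (adjusted p = 9.65e-05) and 0.07 at 36 h (adjusted p = 0.891), and the difference was -2.32 ± 0.41 (adjusted p = 0.0415).

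**Figure D2:**
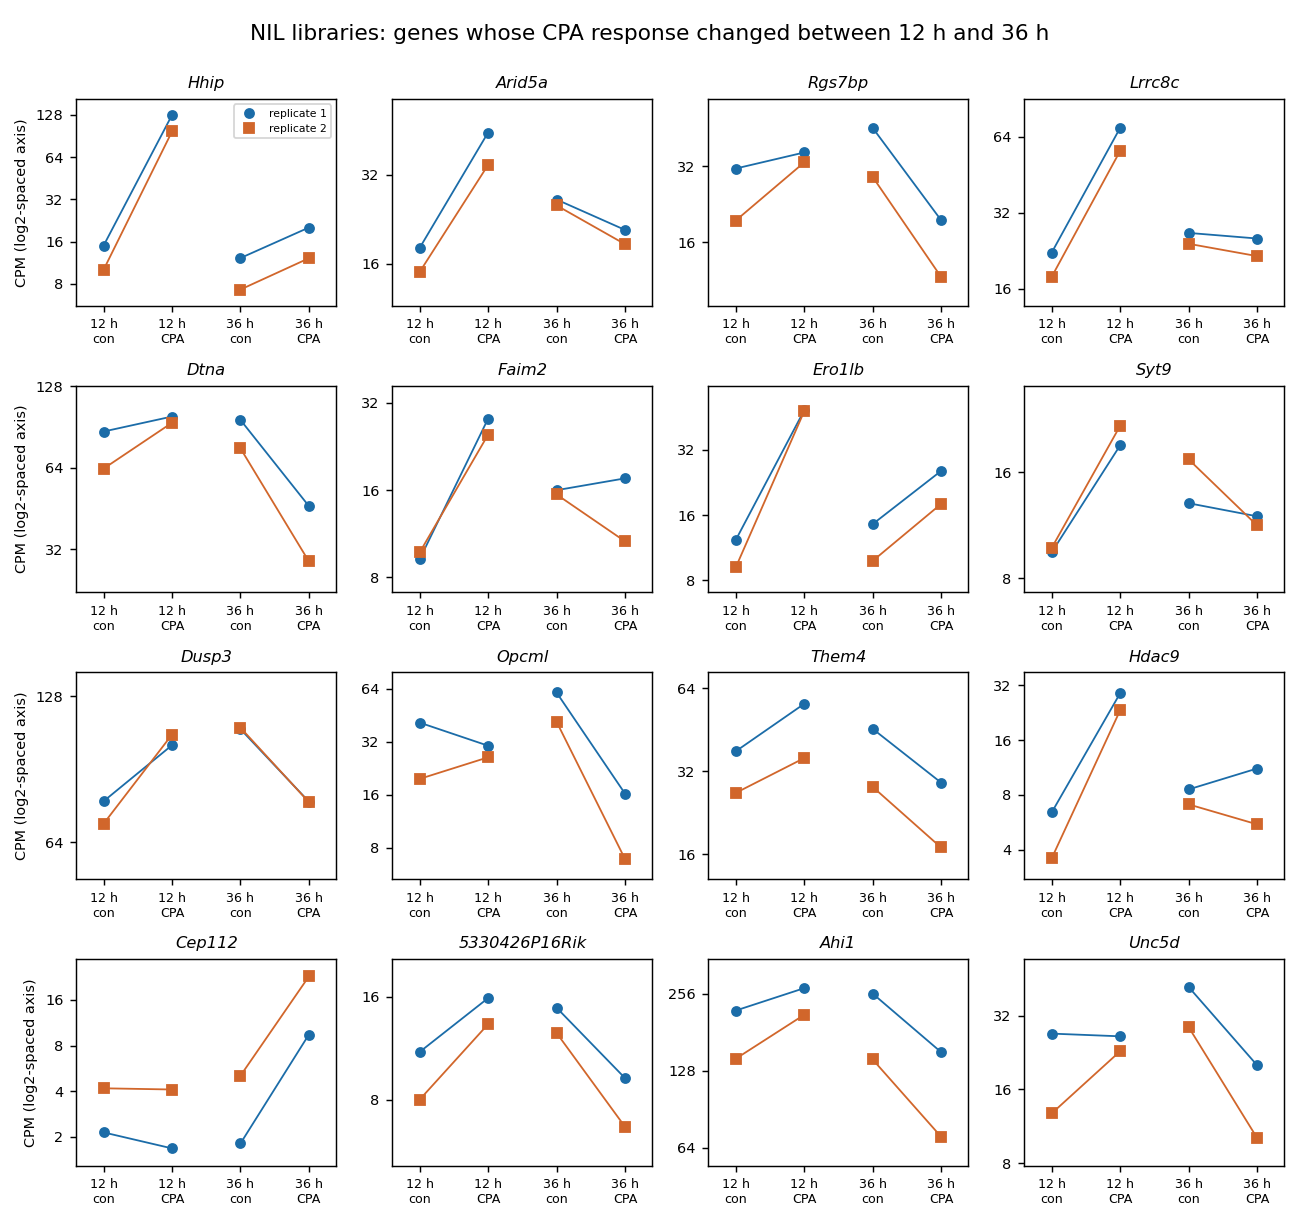
CPM on a log2-spaced axis in each of the 8 NIL libraries for the 16 genes whose CPA response differed between 12 h and 36 h; lines join control and CPA libraries of the same replicate number at each time. Hhip reaches 128 and 97.6 CPM under CPA at 12 h and 20.2 and 12.2 CPM at 36 h, while Cep112 is highest under CPA at 36 h.

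Lasting responses that were smaller at 36 h were called for 2 genes, both rising (0.0135%). Hhip encodes a membrane protein that binds and restrains hedgehog ligands (chromosome 8, 79965851 to 80058006). It had 15.0 and 10.1 CPM untreated against 128 and 97.6 CPM treated at 12 h. At 36 h it had 12.2 and 7.30 CPM untreated against 20.2 and 12.2 CPM treated. The treated libraries at 12 h stood far above the other 6. The log2 response fell from 3.18 ± 0.22 (adjusted p = 5.21e-07) to 0.73 ± 0.22 (adjusted p = 0.0317), a difference of -2.46 ± 0.31 with a 95% interval of -3.10 to -1.81 (adjusted p = 0.0038, edgeR). It was the largest negative difference among the 16 genes and remained called in 6 of the 8 omissions of a single library, more than any other gene.

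Ero1lb, the ER oxidase that feeds oxidising equivalents to protein disulfide isomerase (chromosome 13, 12565874 to 12611396), was the only one of the 16 in any of the functional lists described here, that of ER chaperones and folding enzymes. It rose from 12.3 and 9.17 CPM to 48.5 and 47.9 CPM at 12 h. After 36 h it stood at 14.5 and 9.83 CPM untreated and at 25.5 and 18.0 CPM treated. The treated libraries were above the untreated ones at both times. Its log2 response was 2.19 ± 0.16 at 12 h and 0.83 ± 0.16 at 36 h, and the difference of -1.35 ± 0.23 passed the test (adjusted p = 0.0278, edgeR).

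Responses of opposite sign at the 2 times were called for 6 genes, which all rose at 12 h and fell at 36 h (0.0406%). For 3 of them the difference itself passed the test. Dusp3, a dual-specificity phosphatase of MAP kinases (chromosome 11, 101971143 to 101987013), had 77.8 and 69.9 CPM untreated and 101.5 and 106.7 CPM treated at 12 h, then 109.5 and 110.2 CPM untreated and 77.6 and 77.4 CPM treated at 36 h. The groups did not overlap at either time. Its log2 response went from 0.49 (adjusted p = 0.0159) to -0.50 (adjusted p = 0.00996), a difference of -0.997 ± 0.17 (adjusted p = 0.0278, edgeR). Between 12 h and 36 h its untreated level was higher by a log2 difference of 0.57 (adjusted p = 0.204) and its treated level changed by -0.43 (adjusted p = 0.0291).

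Them4, a mitochondrial acyl-CoA thioesterase (chromosome 3, 94310089 to 94332540), had 37.8 and 26.7 CPM untreated and 56.1 and 35.7 CPM treated at 12 h. At 36 h it had 45.6 and 28.1 CPM untreated and 29.1 and 17.0 CPM treated. Replicate 2 was lower than replicate 1 in each group, so the groups overlapped at both times except within a replicate number. Its difference was -1.18 ± 0.21 (adjusted p = 0.0415, edgeR). The noncoding transcript 5330426P16Rik (Dubr in GENCODE, chromosome 16, 50719294 to 50732773) had 11.0 and 8.01 CPM untreated and 15.9 and 13.3 CPM treated at 12 h, then 14.9 and 12.6 CPM untreated and 9.26 and 6.68 CPM treated at 36 h, with a difference of -1.40 ± 0.26 (adjusted p = 0.0432). The other 3 genes of opposite sign were Glrb, a glycine receptor subunit, Tmem74 and Lama2. Their differences were -1.37, -1.29 and -1.52 and did not pass the test (adjusted p = 0.055, 0.0924 and 0.0971).

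Late genes were called at 36 h but not at 12 h and had a called difference. Only 1 of them rose (0.00676%) and 5 fell (0.0338%). Cep112, a centrosomal coiled-coil protein (chromosome 11, 108425192 to 108860615), was at 2.14 and 4.18 CPM untreated and 1.68 and 4.10 CPM treated at 12 h. At 36 h the untreated libraries had 1.81 and 5.06 CPM and the treated ones 9.45 and 22.9 CPM. Both treated libraries at 36 h were above all other libraries. The log2 response was -0.23 at 12 h (adjusted p = 0.756) and 2.28 ± 0.32 at 36 h (adjusted p = 0.000533), a difference of 2.51 ± 0.46 with a 95% interval of 1.54 to 3.47 (adjusted p = 0.0432, edgeR). It did not remain called in any of the 8 omissions of a single library.

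The 5 late falling genes were Opcml, Unc5d, Rgs7bp, Dtna and Ahi1. Opcml, a GPI-anchored cell adhesion molecule (chromosome 9, 27790775 to 28925410), had 41.2 and 19.7 CPM untreated and 30.5 and 26.2 CPM treated at 12 h, which overlap. By 36 h it had 61.1 and 41.7 CPM untreated and 16.3 and 6.93 CPM treated. Its log2 response was -0.01 at 12 h and -2.20 ± 0.28 at 36 h (adjusted p = 0.000379), and the difference was -2.20 ± 0.38 (adjusted p = 0.0415, edgeR). The untreated level was higher at 36 h by 0.81, a change that did not pass the test.

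Unc5d, a netrin receptor of axon guidance (chromosome 8, 28646717 to 29219636), had 27.1 and 12.8 CPM untreated and 26.4 and 23.0 CPM treated at 12 h, against 42.0 and 28.8 CPM untreated and 20.1 and 10.1 CPM treated at 36 h. Its difference was -1.64 ± 0.30 (adjusted p = 0.0432, edgeR). Rgs7bp, which anchors RGS7-family regulators of G protein signalling at the membrane (chromosome 13, 104945904 to 105054930), had 31.4 and 19.5 CPM untreated and 36.3 and 33.1 CPM treated at 12 h, then 45.5 and 29.1 CPM untreated and 19.6 and 11.7 CPM treated at 36 h. In both genes the treated libraries fell below the untreated ones at 36 h only. The difference for Rgs7bp was -1.75 ± 0.24 with a 95% interval of -2.25 to -1.26 (adjusted p = 0.00503).

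Dtna, a dystrobrevin of the dystrophin complex, had 87.2 and 63.6 CPM untreated and 99.1 and 94.0 CPM treated at 12 h, then 96.3 and 75.6 CPM untreated and 46.2 and 28.9 CPM treated at 36 h. Its difference was -1.57 ± 0.23 (adjusted p = 0.0111, edgeR). Ahi1, a protein of the primary cilium transition zone (chromosome 10, 20952547 to 21080429), had 220.3 and 142.6 CPM untreated and 269.6 and 212.0 CPM treated at 12 h, then 257.0 and 141.8 CPM untreated and 151.5 and 70.6 CPM treated at 36 h. Within each replicate number the treated level was the higher one at 12 h and the lower one at 36 h, while over both replicates the untreated and treated levels of Ahi1 overlapped. Its difference was -1.30 ± 0.24 (adjusted p = 0.0432).

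Without the second treated replicate at 36 h, the library with 38.26% Rn45s, Hhip alone remained called (adjusted p = 0.0466, edgeR). The log2 differences of the 16 genes kept their sign in every alternative that was run. Without that library Opcml had -2.02, Cep112 2.64, Arid5a -1.58 and Ahi1 -1.05, with adjusted p of 0.132, 0.131, 0.0578 and 0.187. With Rn45s itself left out of the counts and all libraries kept, 15 genes were called, 14 of them among the 16. The part of this library in the calls was not tested further, apart from the omission of both libraries of high Rn45s described below.

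Lasting responses, called at both times in the same direction with no called difference, covered 301 rising genes (2.03%) and 302 falling genes (2.04%). With Hhip and Ero1lb, the 303 lasting rising genes had a median log2 response of 1.34 at 12 h and 1.03 at 36 h. In 239 of the 303 the 36 h value was the smaller one, and the median difference was -0.252. The falling genes had medians of -0.885 and -0.933, and 142 of the 302 had the smaller value at 36 h. A difference that misses the threshold does not show equal responses. For 353 of the 605 lasting genes the 95% interval of the difference lay within 1 log2 unit of 0. The rising count was 72 without the first untreated replicate at 36 h, 134 without the second treated one at 36 h, and 168 to 224 without each of the other 6 in turn. The falling count was 88 and 74 without the same libraries. It was 94 to 131 without any of the 4 libraries at 12 h, 212 without the second untreated one at 36 h and 343 without the first treated one at 36 h.

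The lasting rising genes held the ER folding machinery. Beside the counts of rising genes in this and the later lists, 4.16% of all genes tested rose at 12 h and 7.25% at 36 h. ER chaperones and folding enzymes rose in 25 of 33 genes at 12 h and 25 at 36 h, 23 of them at both, with median log2 responses of 1.36 and 1.15 against -0.02 and 0.02 over all genes tested. Their median difference was -0.24, with 9 of 33 above 0, beside 7584 of 14792 genes tested above 0. Without the second treated library at 36 h, 18 of the 33 rose at 36 h. Hspa5 (BiP), the main ER chaperone and sensor inhibitor, had 351 and 493.3 CPM untreated and 3169 and 4482 CPM treated at 12 h. At 36 h it had 373.5 and 486.8 CPM untreated and 1843 and 2067 CPM treated. Its response was 3.18 ± 0.26 and 2.19 ± 0.25, and the difference of -0.99 ± 0.33 did not pass the test (adjusted p = 0.224, edgeR). Between the treated groups alone it was lower at 36 h by a log2 difference of -0.96, which passed (adjusted p = 0.0175).

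The BiP cochaperone Sdf2l1 had responses of 3.97 and 2.57, the chaperone Hyou1 of 3.0 and 1.93 and the secreted ER stress protein Manf of 2.68 and 2.04. Creld2, an ER disulfide isomerase that is also secreted, had 14.2 and 25.2 CPM untreated and 254.8 and 504.4 CPM treated at 12 h, then 15.0 and 22.5 CPM untreated and 98.7 and 127.2 CPM treated at 36 h. All 4 treated libraries lay above all untreated ones, and the 36 h treated level was well under the 12 h one in both replicates. The difference for Creld2 was -1.64 (adjusted p = 0.107, edgeR), and for Sdf2l1 and Hyou1 it was -1.40 and -1.07 (adjusted p = 0.188 and 0.182).

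Several lasting genes carry the ER stress response element (ERSE), which ATF6 binds with NF-Y, searched as CCAAT and CCACG with 9 bases of any kind between them, on both strands from 250 bases before to 50 after each start. It was found for 13 of 239 lasting rising genes with a promoter entry (5.44%), against 20 of 11578 tested genes (0.173%) and 37 of 27025 genes in the table (0.137%). None of 232 lasting falling genes and none of 237 genes called only at 12 h and rising held it. The sites of 4 folding genes are shown with the CCAAT and CCACG boxes in capitals, from RefSeq on GRCm38.p6. With the common replicate block, Ero1lb alone of the 4 had a called difference (-1.35). That of Dnajc3 was close to it (-1.32, adjusted p = 0.114, edgeR). Dnajc3 passed with the block within each line, in the 8 NIL libraries and with DESeq2. The 4 sites are therefore not a contrast of changed and unchanged responses.
Ero1lb: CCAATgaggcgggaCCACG
Hspa5: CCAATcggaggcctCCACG
Dnajc3: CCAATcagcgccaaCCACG
Pdia6: CCAATgaaaggcggCCACG
The Ero1lb site lies at chr13:12565682-12565700 and the Hspa5 site at chr2:34772025-34772043. A single site at chr15:88819520-88819538 serves as the match for Creld2 and its neighbour Alg12, which are read in opposite directions. The match of Xlr3a is shared by its near-identical copies Xlr3b and Xlr3c, which were not called, so the Xlr3 counts are uncertain.

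ER-associated degradation rose in 11 of 29 genes at 12 h and 10 at 36 h, with medians of 0.41 and 0.16. Its median difference was -0.46, and 3 of 29 genes were above 0. Without the second treated library at 36 h, 5 rose at 36 h. Herpud1, a membrane organiser of the degradation complex, had 19.3 and 26.5 CPM untreated and 242.1 and 271.7 CPM treated at 12 h. At the later time it had 22.5 and 32.4 CPM untreated and 103.8 and 174.3 CPM treated. The treated libraries were several-fold higher at both times, with log2 responses of 3.51 and 2.33 and a difference of -1.17 (adjusted p = 0.142, edgeR). The 250 bases before its start (RefSeq, GRCm38.p6, chr8:94386179-94386428, plus strand) are shown because Herpud1 was one of the 2 rising lasting genes with the smallest p and holds elements of both arms, a CARE on the minus strand and then ERSE-II (ATTGG and CCACG with 1 base between them), both in capitals.
Herpud1: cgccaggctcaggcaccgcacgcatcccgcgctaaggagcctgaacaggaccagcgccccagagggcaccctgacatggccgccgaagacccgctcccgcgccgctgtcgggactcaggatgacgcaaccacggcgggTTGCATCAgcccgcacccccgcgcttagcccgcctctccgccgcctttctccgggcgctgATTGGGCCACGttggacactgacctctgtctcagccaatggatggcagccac
ERSE-II matched 4 of the 239 lasting rising genes (1.67%), namely Herpud1, Dnajb11, Krtcap2 and Nucb1, against 0.0691% of tested genes. CARE matched 28 of the 239 (11.7%) and 17 of the 237 rising genes called only at 12 h (7.17%), against 2.78% of tested genes. Its share was 3.88% in lasting falling genes and 2.77% in rising genes called only at 36 h.

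Sel1l, the scaffold of the ER ubiquitin ligase HRD1, fell outside the naming rule and was chosen after its values were seen. It had 186.8 and 157.2 CPM untreated and 736.6 and 959.1 CPM treated at 12 h, then 185.2 and 182.1 CPM untreated and 346.0 and 395.7 CPM treated at 36 h. Its log2 response went from 2.3 to 1.01, and the difference of -1.29 just missed the threshold (adjusted p = 0.0504, edgeR). Protein entry into the ER and glycosylation had 17 of 40 genes higher at 12 h and 18 higher with 1 lower at 36 h, and ER to Golgi transport had 15 and 12 of 36 higher with none lower. Without the second treated library these 36 h counts were 8 of 40 and 2 of 36.

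Atp2a2 encodes SERCA2, the pump that CPA inhibits. It had 393.7 and 328.0 CPM untreated and 885.2 and 1081 CPM treated at 12 h. By 36 h it had 397.4 and 327.7 CPM untreated and 588.0 and 451.1 CPM treated. The groups did not overlap at either time. The 12 h log2 response of 1.47 passed (adjusted p = 0.000119), the 36 h response of 0.51 did not (adjusted p = 0.0605), and neither did the difference of -0.96 (adjusted p = 0.153, edgeR).

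Among 15 sensors and transcription factors of the unfolded protein response, 9 rose at 12 h and 8 at 36 h, with medians of 1.37 and 0.84, and 7 rose at both. Atf4 had 55.2 and 72.0 CPM untreated and 370.5 and 299.9 CPM treated at 12 h, then 64.5 and 67.4 CPM untreated and 254.7 and 245.1 CPM treated at 36 h. Its log2 responses were 2.41 and 1.92. Atf5, a related factor that is also controlled by PERK signalling, had 18.9 and 34.6 CPM untreated and 180.3 and 202.1 CPM treated at 12 h, then 20.2 and 33.9 CPM untreated and 198.7 and 269.0 CPM treated at 36 h. Its responses were 2.91 and 3.14, with a difference of 0.24 and a 95% interval of -0.38 to 0.85. Atf6 had 1.65 and 0.88, and Xbp1 had 1.43 and 1.09.

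Ddit3 (CHOP), the death-associated factor downstream of ATF4, had 6.90 and 13.9 CPM untreated and 200.2 and 201.5 CPM treated at 12 h. After 36 h it had 9.27 and 13.1 CPM untreated and 73.8 and 162.8 CPM treated. All treated libraries were above all untreated ones. The change between times differed between the replicates, at -1.83 in replicate 1 and -0.22 in replicate 2, and the difference of -1.03 did not pass (adjusted p = 0.335, edgeR). The stress factor Atf3 showed a like gap, with -1.62 in replicate 1 and -0.01 in replicate 2.

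The 25 tested targets of ATF4 and CHOP rose in 18 genes at 12 h and 20 at 36 h, 18 of them at both, with medians of 2.29 and 1.71 and a median difference of -0.49. Without the second treated library at 36 h, 14 of them rose at 36 h. Trib3, a pseudokinase that restrains AKT and ATF4 signalling, had 1.29 and 3.48 CPM untreated and 70.1 and 82.3 CPM treated at 12 h, then 1.27 and 2.92 CPM untreated and 34.6 and 110.3 CPM treated at 36 h. Its log2 responses of 5.21 and 5.07 were among the largest at both times, and its difference of -0.15 ± 0.78 has a wide error. Ppp1r15a (GADD34), which reverses the translational block, had 2.84 and 1.71. Chac1, which degrades glutathione, had 5.33 and 4.37, and Sesn2, a restraint on mTORC1, had 1.58 and 1.14. Gdf15 reached at most 1.03 CPM in the 8 libraries and was not called at either time, and Fgf21 was not among the genes tested.

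Amino acid synthesis, transport and tRNA charging, a programme under ATF4, had the most complete response of the lists, with 34 of 36 genes higher at 12 h (median 1.65) and 29 at 36 h (median 0.91). All 29 were lasting, and 5 more were called only at 12 h. The difference was above 0 for 2 of the 36, its median was -0.64, and no member passed its test with the common replicate block. With the block within each line 1 passed, in the 8 NIL libraries 5 and with DESeq2 1, all with a negative difference. Between the treated groups 11 were lower at 36 h. Asns, which makes asparagine, had 124.6 and 154.1 CPM untreated and 497.1 and 451.6 CPM treated at 12 h, then 154.7 and 149.1 CPM untreated and 311.8 and 230.8 CPM treated at 36 h. Its log2 responses were 1.77 and 0.84, with a difference of -0.93 (adjusted p = 0.238, edgeR). Without the second treated library 16 of the 36 rose at 36 h, with a median of 0.94. Slc7a11, the cystine transporter, was called at 12 h only (14.1 and 6.16 CPM treated, 0.238 and 0 CPM untreated), with 1.97 and 1.54 CPM treated at 36 h.

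**Figure D3:**
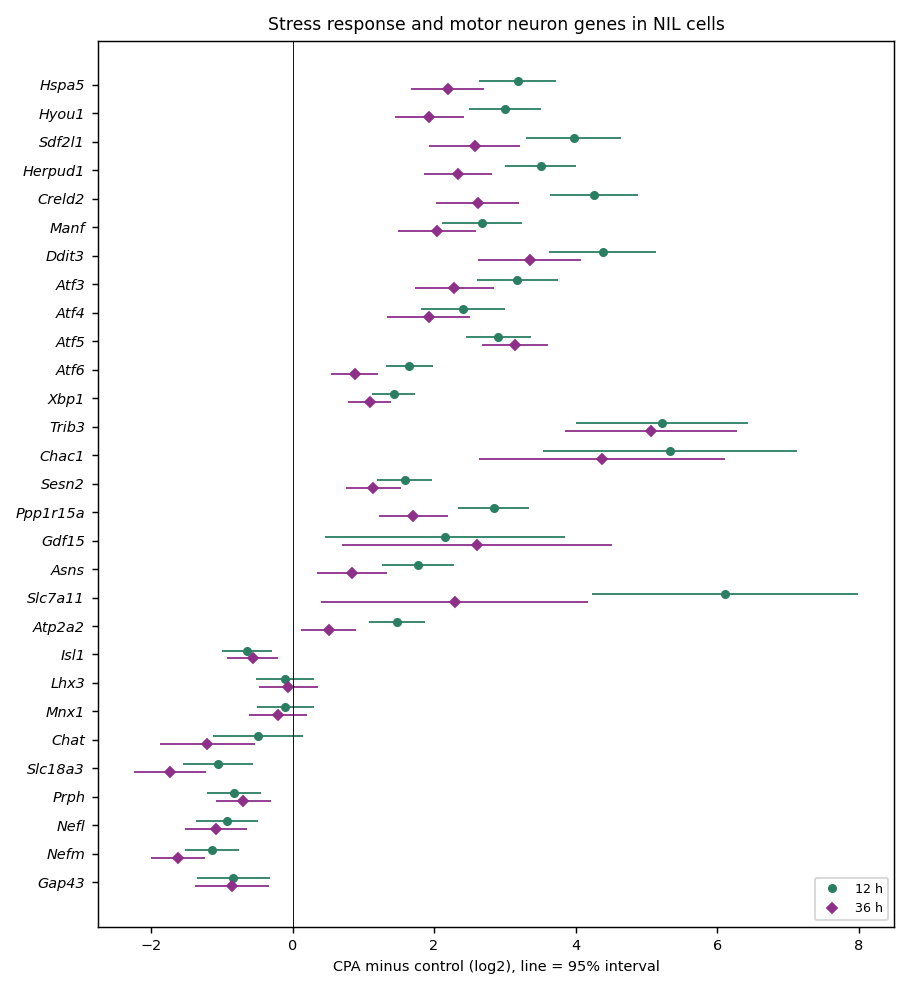
Log2 change under CPA at 12 h (circles) and 36 h (diamonds) with 95% intervals for stress response genes and motor neuron genes, 2 libraries a group. Hspa5 sits at 3.18 and 2.19 and Atf5 at 2.91 and 3.14, while Slc18a3 sits at -1.05 and -1.73 and the intervals of Lhx3 and Mnx1 include 0 at both times.

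**Figure D4:**
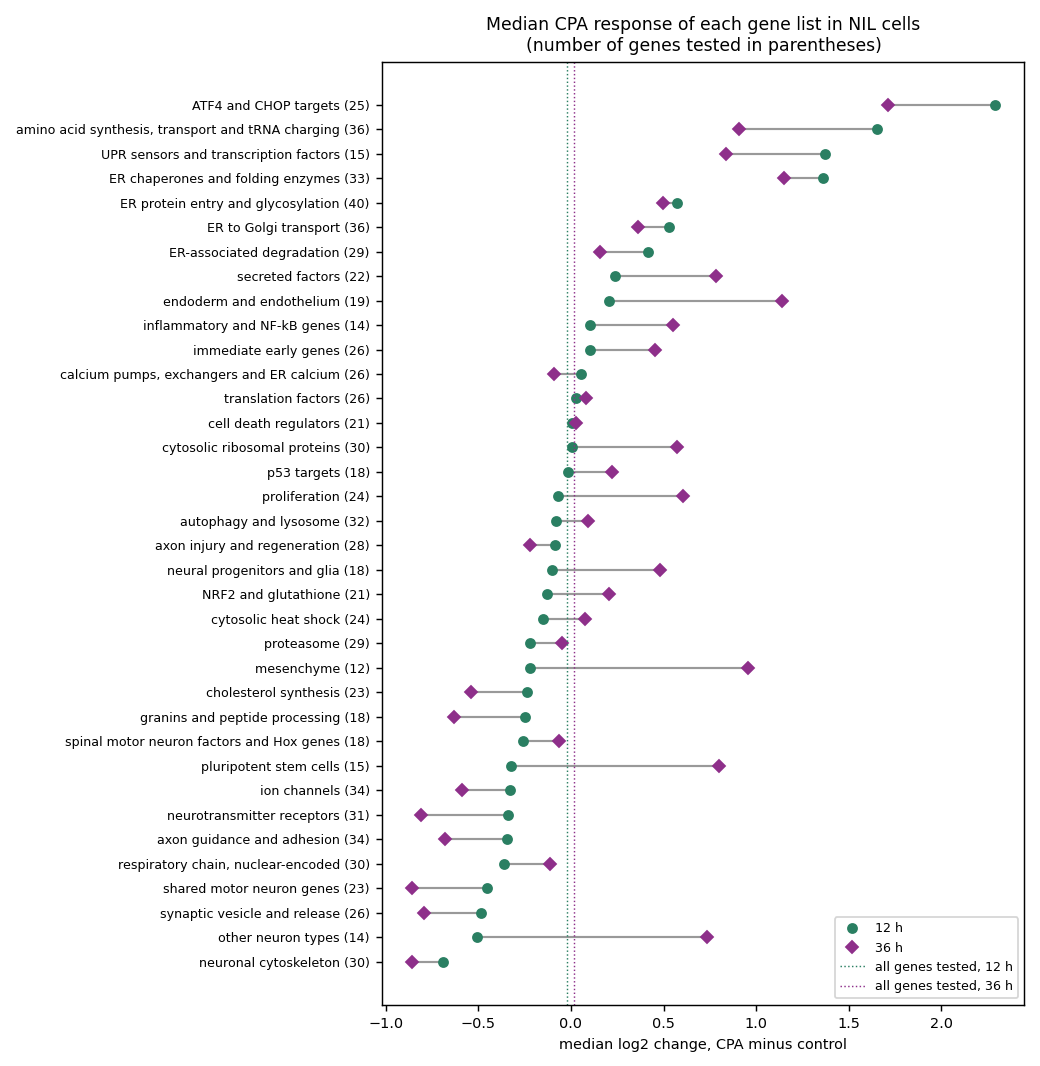
Median log2 change under CPA of each gene list at 12 h (circles) and 36 h (diamonds), with dotted lines for all genes tested. The ATF4, amino acid, sensor and ER chaperone lists at the top have lower medians at 36 h, the shared motor neuron, synaptic, receptor, channel and guidance lists have more negative ones, the spinal factor and Hox list has a less negative one, and the endoderm, mesenchyme and pluripotency lists have higher ones.

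Genes called only at 36 h, with a difference that did not pass, were the largest class, with 1311 falling (8.86%) and 769 rising (5.20%). The falling ones had a median log2 response of -0.26 at 12 h and -0.78 at 36 h, and the rising ones 0.25 and 0.96. These genes are therefore not shown to be late. The falling side held many neuronal genes. Beside the counts that follow, 3.77% of all genes tested fell at 12 h and 11.0% at 36 h. Synaptic vesicle and release genes fell in 4 of 26 at 12 h (Syt2, Snap25 and Cplx1 among them; median -0.48) and in 19 at 36 h (median -0.79), when Slc17a7 rose. Neurotransmitter receptors fell in 4 of 31 at 12 h (Gria1, Grin2a, Glra2 and Chrna4; median -0.34) and in 16 at 36 h (median -0.81). At 36 h these included the GABA receptor subunit Gabrb2 (-1.75). Ion channels fell in 1 of 34 at 12 h (Kcnn3, log2 -1.77) and in 12 at 36 h (medians -0.33 and -0.59). Axon guidance and adhesion genes fell in 0 of 34 at 12 h and in 16 at 36 h (medians -0.34 and -0.68), among them the semaphorin receptors Plxna4 (-1.85), Nrp1 (-1.02) and Nrp2 (-1.14). Cacng3 rose at both times and Glrb at 12 h among the receptors, and Epha5 at 12 h and Robo3 at 36 h among the guidance genes.

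Without the library of high Rn45s, the synaptic, receptor, ion channel and guidance lists had 36 h medians of -0.49, -0.52, -0.46 and -0.40. That omission leaves 1 treated library at 36 h, and calls can be lost for that reason alone. No other single omission was run for the lists, so lower list counts without this library are not credited to its Rn45s. In replicate 1 the median difference between the times was -0.09 for synaptic genes, -0.16 for receptors, 0.02 for ion channels and 0.07 for guidance genes. In replicate 2 the same medians were -0.80, -1.04, -0.65 and -0.74. In the same order the replicates gave -0.25 and -0.38 for ER chaperones, -0.45 and -0.51 for ER-associated degradation, -0.77 and -0.49 for amino acid genes and -0.715 and -0.158 for targets of ATF4 and CHOP, all below 0. Ribosomal protein genes had 0.03 in replicate 1 and 0.97 in replicate 2, and 11 of 30 were higher at 36 h by the test, 1 of 30 without the library of high Rn45s.

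**Figure D5:**
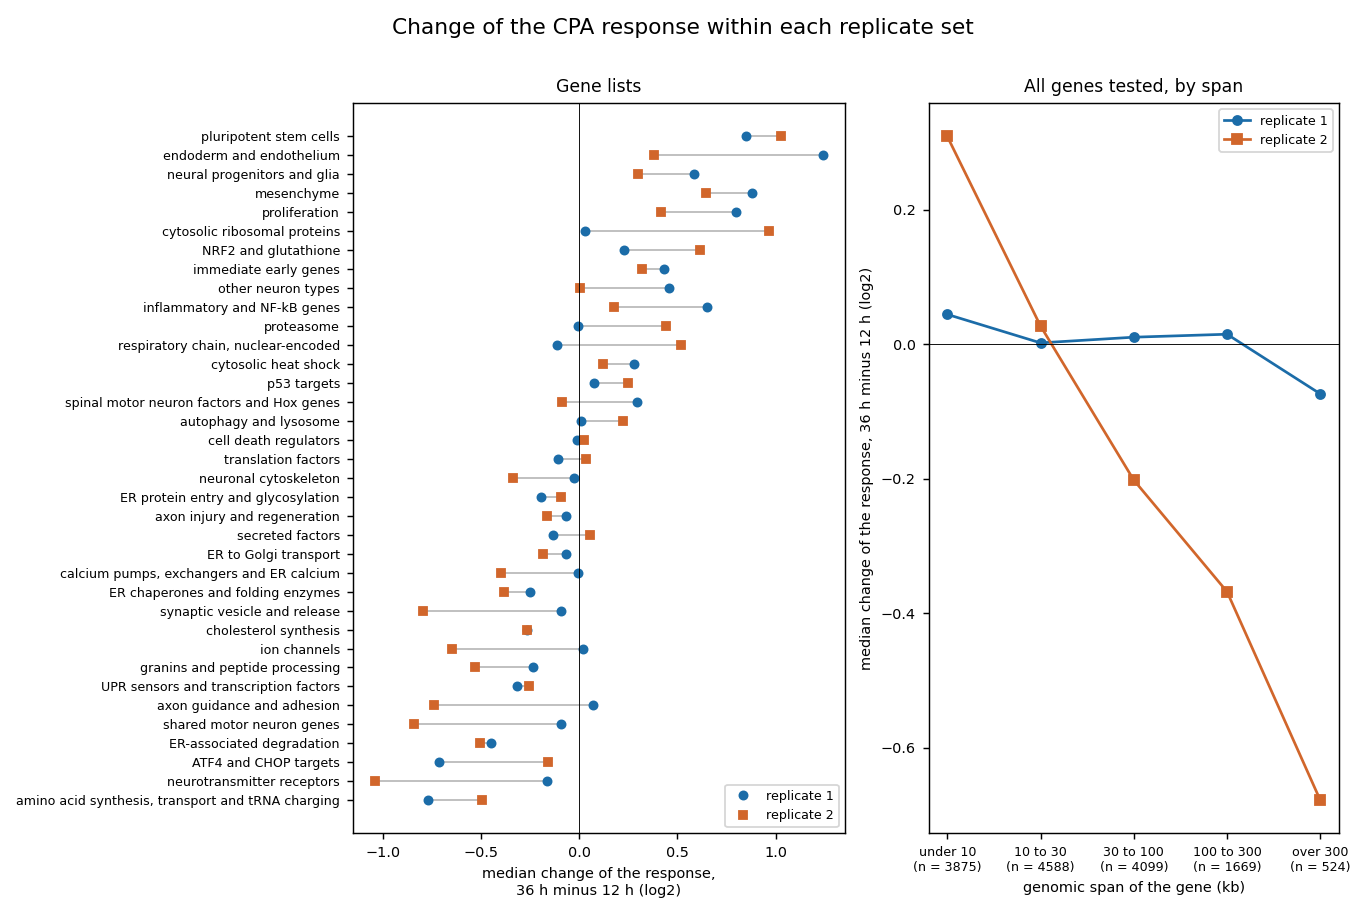
Median difference between the 36 h and 12 h CPA responses (log2) computed within replicate 1 (circles) and replicate 2 (squares), for each gene list on the left and for all genes tested by genomic span on the right. The ER and ATF4 lists are below 0 in both replicates, whereas the fall with span, to -0.678 in genes over 300 kb, is found in replicate 2 and the last point of replicate 1 is at -0.0739.

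Motor neuron genes fell in part. Of 23 genes shared by motor neurons, 6 fell and 1 rose (Cdh7) at 12 h and 13 fell at 36 h, with medians of -0.46 and -0.86. The vesicular acetylcholine transporter Slc18a3 had 323.5 and 209.2 CPM untreated and 166.3 and 93.2 CPM treated at 12 h, then 328.4 and 270.5 CPM untreated and 127.0 and 59.2 CPM treated at 36 h. The treated libraries were below the untreated ones at both times. Its responses were -1.05 (adjusted p = 0.0105) and -1.73 (adjusted p = 0.000533), and the difference of -0.68 did not pass (adjusted p = 0.365, edgeR). Chat, which makes acetylcholine, had 34.8 and 15.3 CPM untreated and 24.1 and 11.8 CPM treated at 12 h, then 29.3 and 17.0 CPM untreated and 14.1 and 6.03 CPM treated at 36 h, with responses of -0.48 (adjusted p = 0.381) and -1.21 (adjusted p = 0.0175). Isl1, a programming factor of the line, fell at both times (-0.64 and -0.56). The factors Lhx3 (-0.10 and -0.06), also a programming factor, and Mnx1 (-0.10 and -0.20) were not called. The list of spinal motor neuron factors and Hox genes, to which these 2 belong, had 2 of 18 lower at 12 h (median -0.26), and 3 higher and 2 lower at 36 h (median -0.07). Its median difference was 0.18, and its 36 h median was 0.07 without the library of high Rn45s and 0.04 with upper quartile scaling. Without that library, 4 of the 23 shared genes fell at 36 h.

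Neuronal cytoskeleton genes fell early and stayed low, in 13 of 30 at 12 h (median -0.69) and 23 at 36 h (median -0.86), all 13 at both times. The median difference was -0.08 and changed sign with upper quartile scaling (0.014) and without the library of high Rn45s (0.13), where 3 of 30 fell at 36 h. The neurofilament Nefm had responses of -1.14 and -1.62, Nefl of -0.92 and -1.08 and the intermediate filament peripherin, Prph, of -0.83 and -0.70. The growth cone protein Gap43 had -0.84 and -0.85. Among the lasting falling genes with the smallest p were Pde2a, a phosphodiesterase (-2.05 and -1.79), the laminin receptor Bcam (-1.94 and -1.69), the neuronal tubulin Tubb4a (-1.38 and -1.43), the protocadherin Pcdhgc4 (-2.08 and -1.74), Abat, which breaks down GABA (-1.94 and -1.38), and acetylcholinesterase, Ache (-1.41 and -1.26).

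Over all genes tested the rising share was 4.16% at 12 h and 7.25% at 36 h, and some lists also held more rising genes at 36 h. Lysosomal and autophagy genes had 0 of 32 higher at 12 h and 7 at 36 h, among them the cathepsins Ctsd (0.66) and Ctsl (1.05) and the hexosaminidase subunit Hexa (0.63), and 1 lower at each time, Gabarapl2 and then Atg12. Of 21 NRF2 and glutathione genes, 3 rose at 12 h (Hmox1, Srxn1 and Slc7a11) and 6 at 36 h, and 1 fell at 12 h (G6pdx). Heme oxygenase, Hmox1, had log2 responses of 1.85 and 2.08. Of 21 cell death regulators, the BH3-only gene Hrk alone rose at 12 h (1.32). At 36 h Bbc3, Bmf, Birc5 and Tnfrsf10b rose (0.68, 0.88, 0.86 and 0.94), and 3 fell, among them Bcl2 and Casp9 (-0.84 and -0.66). The 3 falling cell death genes of 21 at 36 h were a share near that over all genes tested (11.0%). Without the library of high Rn45s, 2 lysosomal, 3 NRF2 and 2 cell death genes rose at 36 h and none of these 3 lists had a falling gene.

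Some markers of other cell types differed between the treated groups at 12 h and 36 h by the test. Higher at 36 h were 3 of 19 endoderm and endothelium, 1 of 24 proliferation, 3 of 15 pluripotency and 0 of 12 mesenchyme genes. Of 18 progenitor and glia genes 2 were higher and 2 lower, and 2 of 14 of other neuron types were higher. Over all genes tested 5.95% were higher and 7.06% lower. The 19 endoderm and endothelium markers summed to 4611 and 10870 CPM untreated and 5487 and 16840 CPM treated at 12 h. At 36 h they summed to 5368 and 18520 CPM untreated and 15360 and 32740 CPM treated. The sum was higher under CPA in each replicate at each time, and replicate 2 held more than replicate 1 in each group. The difference between the responses was above 0 for 19 of the 19 (median 0.88), for 24 of 24 proliferation genes (median 0.64) and for 15 of 15 pluripotency genes (median 1.00). It was above 0 for 10 of 12 mesenchyme markers (median 0.79) and 15 of 18 of neural progenitors and glia (median 0.81). Of other neuron types 10 of 14 were above 0 (median 0.44), with medians of 0.456 in replicate 1 and 0.00653 in replicate 2. Over all genes tested 7584 of 14792 were above 0. None of the genes in these 6 lists passed the test of the difference. At 36 h 2 of 19 endoderm, 2 of 24 proliferation, 1 of 15 pluripotency and 2 of 12 mesenchyme genes rose. Of 18 progenitor and glia genes 2 rose and 2 fell, and 2 of 14 of other neuron types rose. Over all genes tested 7.25% rose and 11.0% fell. The keratins Krt8 and Krt18, the cycle genes Top2a and Mcm7 and the factor Klf4 were among the rising ones. The mesenchyme sum was 671.2 and 959.3 CPM untreated and 490.4 and 638.9 CPM treated at 12 h, then 593.7 and 803.1 CPM untreated and 657.8 and 810.6 CPM treated at 36 h, lower under CPA at the first time and slightly higher at the second in both replicates. The sum of 9 motor neuron markers was 4301 and 3360 CPM untreated and 2755 and 1789 CPM treated at 12 h. At 36 h it was 4263 and 2952 CPM untreated and 2885 and 1395 CPM treated. The 9 were the programming factors Isl1 and Lhx3, then Mnx1, Chat, Slc18a3, Slc5a7, Tubb3, Map2 and Stmn2. Tubb3, Map2 and Stmn2 are expressed in neurons of other types too, so the sum is not particular to motor neurons. The part of a shift in cell types in the neuronal values above was not tested.

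The genes that differed between the times were longer by median than the genes tested, but not all were long. Dusp3 and Arid5a spanned 15.9 and 16.3 kb. Since 15 of the 16 differences were negative, span and sign were not separated. The 16 had a median genomic span of 101 kb in RefSeq, against 23.8 kb over all genes tested, and 8 of 16 spanned over 100 kb, against 14.9%. The 5 late falling genes had a median of 350 kb and all exceeded 100 kb. That median is the RefSeq span of Dtna, which spans 245 kb in GENCODE. Genes that fell only at 36 h had 50.3 kb, with 32.8% over 100 kb, and lasting rising genes 18.2 kb, with 9.24%. Over all genes tested the median difference went from 0.207 for spans under 10 kb to -0.372 over 300 kb. It went from 0.0443 to -0.0739 in replicate 1 and from 0.309 to -0.678 in replicate 2. Without the library of high Rn45s the ends were 0.177 and -0.199. Span and expression in neurons were not separated here.

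The same contrast in NIP cells, labelled cranial motor neurons from the same kind of culture, is given for the 16 genes from 8 other libraries. One of these, the first untreated replicate at 36 h, had 38.56% Rn45s. In NIP 161 genes passed (1.09%), and 7 of the 16 were among them. The NIP count was 31 without that library and the NIL library of high Rn45s, and 2 without the replicate block. Hhip (-2.79, adjusted p = 0.000652), Ero1lb (-1.81, adjusted p = 0.000829), Rgs7bp (-1.91, adjusted p = 0.00192), Unc5d (-2.25, adjusted p = 0.00274), Hdac9 (-2.68, adjusted p = 0.0112) and Ahi1 (-1.13, adjusted p = 0.0306) had the same sign as in NIL. Syt9 had the opposite one (1.02 ± 0.22, adjusted p = 0.0337, edgeR). The test of the difference between lines passed for 1 gene (0.00676%), Syt9, and for no gene without the replicate block, without both libraries of high Rn45s, or without the second replicate of untreated NIL at 12 h, untreated NIL at 36 h or treated NIL at 36 h. Opcml had 0.76 in NIP (adjusted p = 0.427), opposite in sign to NIL, and Lrrc8c had 0.02. Their differences between lines of -2.96 and -1.76 did not pass (adjusted p = 0.161 and 0.162). The remaining genes are therefore not shown to differ between lines.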

How the data were processed

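Reads per gene over exons were deposited by the authors as counts, 1 file a library. The submitters' processing notes name Picard, HTSeq 0.6.1p1, Bowtie2 2.3.2 and TopHat2 2.1.1, and the build GRCm38/mm10. The order of these steps, the annotation release and the use of strand are not given in the sources used here, so overlapping and antisense genes may share reads. The 5 summary lines (no feature, ambiguous and the like) were left out of library sizes. Reads without a feature came to 8.541% to 14.97% of all counted reads, summary lines included, in the 8 NIL libraries, and ambiguous reads to 0.156% to 0.4034%.

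Counts were fitted with edgeR 4.0.16 in R 4.3.3 (quasi-likelihood, robust, TMM factors, edgeR's default filter on low counts by group) over all 20 libraries, with 10 group means and the replicate number as a block (9 residual degrees of freedom, biological coefficient of variation 15.7%). The filter kept 14792 of 24421 gene symbols. P-values were adjusted by Benjamini-Hochberg over all genes tested. Time classes combine the calls of the 12 h response, the 36 h response and their difference.

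The replicate numbers come from the titles. In 10861 genes, same-numbered libraries deviated from their group means together in 45 of 45 pairs of groups (r of 0.341 to 0.872, median 0.604), and in 6 of 6 pairs of the NIL groups (0.607 to 0.791), so the numbers were treated as pairs. No 2 replicates agreed within sampling noise (chi-square per degree of freedom of 30.12 to 316.4).

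The genes named are those whose difference passed with at least 5 CPM in a group, the 6 of each time class with the smallest p, called list members, and a fixed set of stress and motor neuron genes. Other list members named beside small counts were chosen after their values were seen. Values of some genes are not reported here. The comparison, its lists and its motifs were chosen with earlier results of these data known. Lists are described by counts and medians, with no set test. Symbols matched RefSeq genes for 14755 of 14792 tested genes and promoter entries for 11578 (78.3%), including 13 of the 16 called. The procedure was tested in a single simulation with the fitted spread, on genes of at least 5 CPM on average. Of 50 genes changed by 0.5 log2 units it called 0%. It called 26% of those changed by 1, 68% by 1.5 and 94% by 2. A difference of about 1 log2 unit was thus often missed. DESeq2 1.42.0, other scalings, filters, blocks and thresholds and the omission of each library were run as alternatives.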

Additional observations from a re-analysis of the deposited data

Results flagged for a closer look

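Syt9 differed between the lines by the test of the interaction. The difference between its 36 h and 12 h CPA responses was -1.43 ± 0.24 in NIL and 1.02 ± 0.22 in NIP on the log2 scale, and the NIL value minus the NIP value was -2.44 ± 0.32 with a 95% interval of -3.12 to -1.76 (adjusted p = 0.0122, edgeR's quasi-likelihood test). It was the 1 gene of 14792 that passed this test. No gene passed it without the replicate block, without both libraries of high Rn45s, or without the second replicate of untreated NIL at 12 h, untreated NIL at 36 h or treated NIL at 36 h.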

How the results depend on the processing

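The differences of the named genes that were recomputed kept their sign, but counts of calls moved widely. Of the lists, the median difference changed sign for ER protein entry (-0.0918 to 0.00658) and translation factors (-0.0508 to 0.0477) with upper quartile scaling, and for the neuronal cytoskeleton (-0.0767) with that scaling (0.014), without the treated library of high Rn45s (0.128) and without both such libraries (0.114). In the order difference between responses, 12 h response, 36 h response and treated change, the counts of 16, 1174, 2697 and 1925 became 1, 327, 145 and 10 without the replicate block, and the transient, late, reversed, lasting rising and lasting falling classes became 1, 0, 0, 54 and 19, with 2 calls in NIP and 0 between lines. With the replicate block within each line they were 170, 1806, 3090 (treated change) and 402 (NIP), with 5 untreated and 5 line calls and 34 transient, 104 late, 22 reversed and 589 lasting falling genes. In the 8 NIL libraries with the replicate block, the difference had 466 calls, the untreated change 46 and the treated change 3154, with 74 transient, 320 late and 25 reversed genes. DESeq2 with the replicate block gave 146 for the difference, 26 untreated, 365 in NIP, 17 between lines, 44 transient and 82 late. No filter on low counts gave 2 line calls and 3 reversed genes. Without both libraries of high Rn45s, the difference had 0 calls, the 36 h response 404, the treated change 520, NIP 31 and the line difference 0, with 0 transient, 0 late, 0 reversed, 98 lasting rising and 60 lasting falling genes. At an adjusted p under 0.01 the counts were 4, 467, 872 and 407, then 24 in NIP, 0 between lines, and 3, 1, 0, 119 and 66 in the 5 classes. At an adjusted p under 0.1, an alternative chosen after seeing the data, they were 52, 1866, 3405 (treated change), 305 (NIP), 15 transient, 20 late, 23 reversed and 551 lasting falling.

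Leaving out each library in turn gave 0 to 52 for the difference, 449 to 1219 at 12 h, 337 to 2672 at 36 h, 0 untreated in every case, 137 to 1914 for the treated change, 123 to 183 in NIP and 0 to 3 between lines. The classes ranged over 0 to 9 transient, 0 to 33 late, 0 to 10 reversed, 72 to 224 lasting rising and 74 to 343 lasting falling genes. Each omission leaves 1 library in a group, which is assumed to vary like the others. The causes of these changes were not tested. Upper quartile scaling moved the median of all genes by about 0.1 (to 0.107 for the difference and 0.12 at 36 h).

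The median half-width of the 95% interval of the difference was 0.639 log2 units. It was 2.4 for genes under 1 CPM in their highest NIL group and 1.35 from 1 to 5 CPM, where no gene was called, against 0.524 from 20 to 100 CPM.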

Other observations

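Positive differences were more frequent among the calls of the other models. The fit with the block within each line, the fit of the 8 NIL libraries and DESeq2 shared 105 genes, 84 with a negative and 21 with a positive difference, and the 16 genes were among them. The 21 included genes of the lysosomal proteins Dpp7, Fuca2, Glmp and Ctsa, which were picked after their values were seen. Dpp7, a lysosomal peptidase, had 5.40 and 8.71 CPM untreated and 4.53 and 5.35 CPM treated at 12 h, then 5.83 and 9.34 CPM untreated and 15.7 and 17.7 CPM treated at 36 h. Both treated libraries at 36 h lay above the other 6. The differences were 1.65 for Dpp7, 1.29 for Fuca2, 1.11 for Glmp and 0.97 for Ctsa, with adjusted p of 0.0631, 0.0834, 0.117 and 0.115 in the fit of all 20 libraries, where none passed. In replicate 1 and replicate 2 the differences were 1.59 and 1.54 for Dpp7 and 1.00 and 0.94 for Ctsa.

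The following 3 genes had negative differences that did not pass the test and were again picked after their values were seen. Other genes with a negative difference had smaller p-values. Hrk, a BH3-only death gene of neurons, had 53.8 and 47.1 CPM untreated and 143.5 and 108.8 CPM treated at 12 h, then 60.4 and 57.2 CPM untreated and 50.1 and 47.5 CPM treated at 36 h, with a difference of -1.59 (adjusted p = 0.1). The semaphorin Sema3c had 207.9 and 144.2 CPM untreated and 268.1 and 225.7 CPM treated at 12 h, then 191.5 and 117.4 CPM untreated and 86.4 and 39.9 CPM treated at 36 h, with a difference of -1.84 (adjusted p = 0.0603). The choline transporter Slc5a7 had 141.7 and 46.8 CPM untreated and 96.2 and 55.1 CPM treated at 12 h, then 126.1 and 50.7 CPM untreated and 41.7 and 13.9 CPM treated at 36 h, with a difference of -1.55 (adjusted p = 0.1).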
